A study of Homo sapiens with 8 samples.

Results

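Polycomb repressive complex 2 (PRC2) was followed here through 10 of its genes, the subunits and accessory proteins EZH2, EZH1, EED, SUZ12, RBBP7, JARID2, AEBP2, MTF2, PHF1 and PHF19. They were chosen by name, as every probe set that the platform annotation pairs with a single one of these symbols. That gave 27 probe sets of the 54675 on the array, between 1 (EZH2, RBBP7) and 5 (EZH1, MTF2) per gene. Expression had been measured on 8 Affymetrix HG-U133 Plus 2.0 arrays, from RNA of SUP-B8 and NALM-6, as the labels name them, 2 human lines of acute lymphoblastic leukaemia. The 4 groups were SUP-B8 with GSK126, SUP-B8 with DMSO, NALM-6 with GSK126 and NALM-6 with DMSO, each kept for 72 hours, with GSK126 at 0.5 uM and DMSO as its vehicle. Each group held 2 arrays, which the labels call biological replicates, and the p-values rest on that description. GSK126 inhibits EZH2, and the study's title concerns a substitution in EZH2 linked to raised trimethylation of lysine 27 of histone H3, but the labels give no EZH2 genotype for either line.

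PRC2 methylates histone H3 at lysine 27, which marks silenced developmental genes. EZH2, or its paralog EZH1, carries the catalytic SET domain but is active only when bound to EED and SUZ12, and the histone-binding proteins RBBP4 and RBBP7 complete the core. EED also reads the finished mark and stimulates the enzyme, which lets the mark spread. Accessory proteins divide the complex into classes. The Polycomb-like proteins PHF1, MTF2 and PHF19 guide a class of the complex to unmethylated CpG-rich DNA, while JARID2 and AEBP2 belong to the other class. In B cells EZH2 is abundant in dividing precursors and in germinal centres, and EZH1 is known more from resting cells. GSK126 competes with the methyl donor of the enzyme and so need not alter any transcript of the complex.

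The deposited values are on a log2 scale, on which 1 unit is a 2-fold difference, and the medians of the 8 arrays lay between 7.18 and 7.24. The correlation of replicates was 0.9977 to 0.9982, and the 3′ minus 5′ control difference lay between -0.07 and 0.02 for ACTB. B-lineage markers were above the array medians on all arrays (4 of the 4 with a named probe set), and the 4 myeloid markers were below on all of them. The T-cell, erythroid and stromal lists had 3 of 4, 2 of 2 and 1 of 3 markers above the medians in every group. The summed log2 level of the T-cell list ran from 9.60 to 9.67 in the arrays labelled SUP-B8 and from 9.62 to 9.72 in those labelled NALM-6. Precursor B-cell markers were above the medians in 8 of 8 for SUP-B8 and in 2 of 8 for NALM-6. Of 5 mature B-cell markers, 1 (MS4A1) was above in SUP-B8 and 4 (MS4A1, CCR7, CR2, CD86) in NALM-6. This list also moved with treatment: of 4 tested, 2 were called lower with GSK126 in NALM-6 and 1 higher in SUP-B8. MS4A1 averaged 12.38 with GSK126 against 13.34 with DMSO in NALM-6, and 9.11 against 8.03 in SUP-B8. Its part in the PRC2 results was not tested. DNTT, the terminal transferase commonly reported for NALM-6, averaged 13.54 and 13.67 with GSK126 and DMSO under the SUP-B8 label, and 6.65 and 6.86 under the NALM-6 label. The line names are therefore given only as labels, and every direction between lines is that of the labels.

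The transcript of EZH2 itself showed no difference beyond the spread of its arrays. Its probe set, 203358_s_at, read 11.22 and 11.18 in SUP-B8-labelled GSK126 arrays, against 11.13 and 11.28 with DMSO. In the NALM-6-labelled arrays it read 11.24 and 11.19 with GSK126, against 11.17 and 11.25 with DMSO. All 4 groups overlap. The differences, GSK126 minus DMSO, were -0.01 ± 0.07 (SE) for SUP-B8 and 0.01 ± 0.07 for NALM-6. Their 95% intervals, -0.16 to 0.15 and -0.14 to 0.16, bound what these arrays could have missed. The line differences, SUP-B8 minus NALM-6, were -0.02 ± 0.07 under GSK126 and -0.00 ± 0.07 under DMSO. The genes whose profile over the 4 group means was most like that of EZH2, among 13160 others, were AAAS, TMEM109 and EEFSEC, with root mean square differences of 0.0035, 0.0044 and 0.0044 log2 units.

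The 250 bases upstream of the outermost EZH2 start in RefSeq (build GRCh38.p14, chr7:148884292-148884541, minus strand) are shown because this gene is the target of the drug and no difference of its transcript was called. The capitals mark CCAAT, the box bound by NF-Y, read on either strand. It occurs 4 times here and 0 times in the window of the other EZH2 start in the table, and 32% of 35116 windows of this length before RefSeq starts hold it at least once. The GC content is 75.6%, against a median of 58% over those windows.
EZH2 upstream: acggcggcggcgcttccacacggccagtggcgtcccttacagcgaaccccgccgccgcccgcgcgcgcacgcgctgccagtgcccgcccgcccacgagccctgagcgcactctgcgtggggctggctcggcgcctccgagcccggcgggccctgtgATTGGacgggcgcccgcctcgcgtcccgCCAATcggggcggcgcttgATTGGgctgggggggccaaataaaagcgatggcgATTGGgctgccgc

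**Figure D1:**
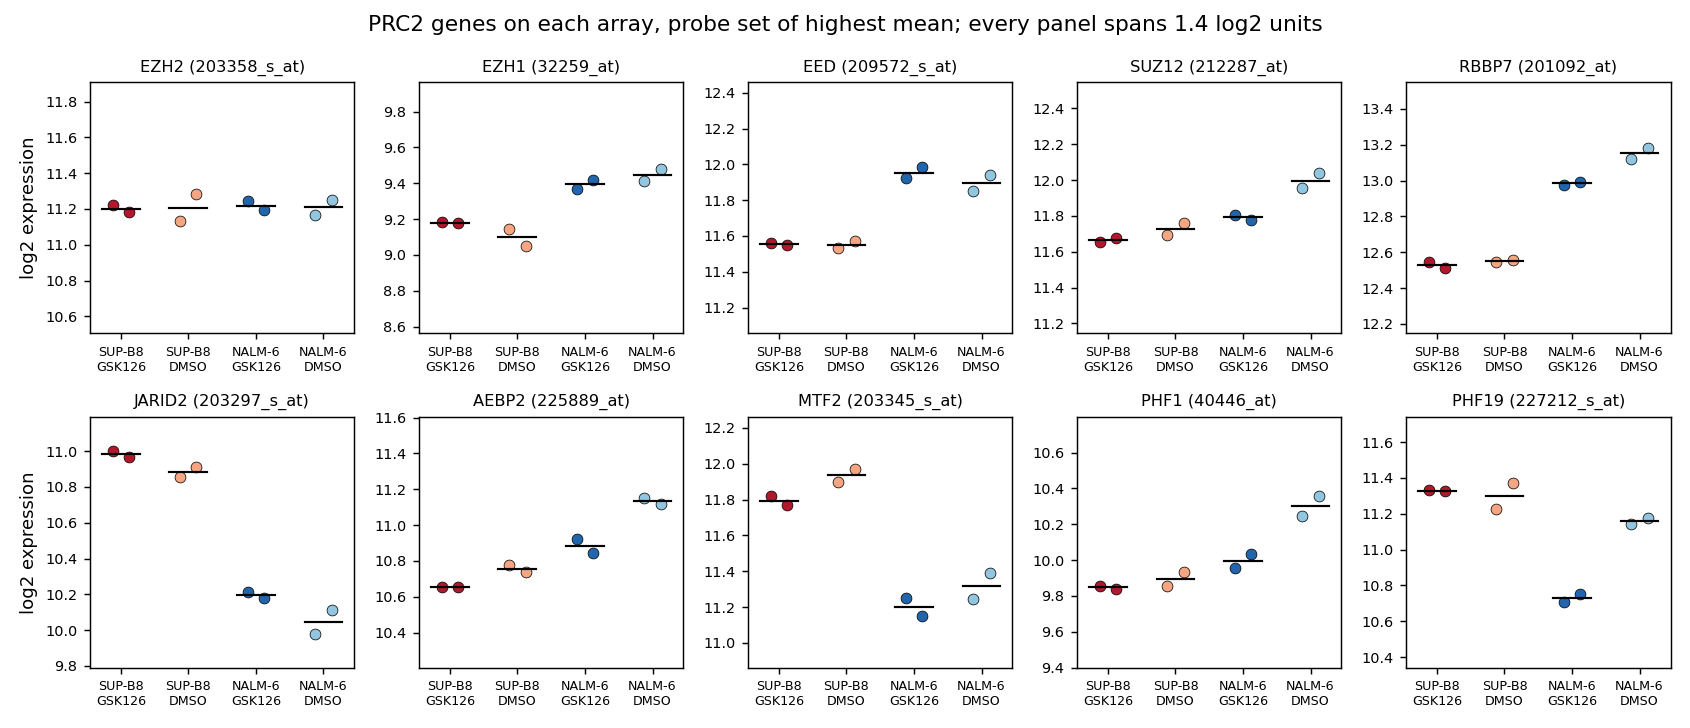
Log2 expression of the 10 PRC2 genes on each of the 8 arrays, by the probe set of highest mean; points are arrays, bars are group means of 2 arrays, and every panel spans the same height. EZH2 lies level across the groups, JARID2 and MTF2 are higher in the SUP-B8-labelled arrays, and PHF19 is lowest in the NALM-6-labelled GSK126 arrays.

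GSK126 was followed by no called change of any PRC2 probe set in the arrays labelled SUP-B8. Here and below, testing needed a value above the array's own median on 2 or more of the 8 arrays, which 24 of the 27 had. A probe set was called at an adjusted p under 0.05 in limma. Adjustment was by the Benjamini-Hochberg method over all 30199 probe sets tested. Of these 1.16% were called in the SUP-B8 contrast, and 0 of the 24 PRC2 probe sets were. At an unadjusted p under 0.05 there were 5 PRC2 probe sets, among 4639 of all. The fitted differences ran from -0.29 to 0.28, with a median of -0.02 over the 24, the same as over all probe sets. The upper end is AEBP2 235184_at, which lay below the medians on all SUP-B8-labelled arrays. A robust prior with an intensity trend called 1 of the 24, which was lower. In extracts of whole cultures, fewer cells of a type and less RNA per cell cannot be told apart.

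The widest fitted differences in the SUP-B8 contrast were on single probe sets of MTF2, AEBP2 and PHF19. MTF2, a Polycomb-like protein, read 10.40 and 10.39 on probe set 203347_s_at with GSK126, against 10.60 and 10.77 with DMSO. Its difference was -0.29 ± 0.07 (adjusted p = 0.129). All 5 MTF2 probe sets were lower with GSK126 in both replicates, by 0.10 to 0.29, none of them called. PHF19 read 9.72 and 9.78 on 225533_at with GSK126, against 9.51 and 9.62 with DMSO, without overlap, a difference of 0.19 ± 0.06 (adjusted p = 0.204). Its other probe sets gave 0.03 ± 0.06 on 227212_s_at, with overlap, and -0.08 ± 0.06 on 227211_at, with both GSK126 arrays lower. On AEBP2 235184_at the fitted difference was 0.28 ± 0.10 (adjusted p = 0.266). Every SUP-B8-labelled array lay below its median there, so the size is not shown. With values below the medians set to them it was -0.01. The bright AEBP2 probe set 225889_at ran the other way, at -0.10 ± 0.05 (adjusted p = 0.397), without overlap. JARID2, which helps recruit the complex, differed by 0.10 ± 0.06 and 0.12 ± 0.06 on its 2 tested probe sets, and the treatments did not overlap on either. Treatments did not overlap in 14 of the 24 PRC2 probe sets, where the share over all probe sets was 47.7%. The smallest two-sided p of an exact permutation test is 0.333 in groups of this size (n = 2), so every call rests on the model.

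In the arrays labelled NALM-6, every call among PRC2 probe sets was lower with GSK126. GSK126 was followed by lower values in 12 of the 24 probe sets, belonging to 8 genes, and by higher values in 0. Over all probe sets 39.3% were called in this contrast, 20% lower and 19.2% higher. Treatments did not overlap in 18 of the 24, where the share over all probe sets was 69.5%. The PRC2 median was -0.19, against 0.01 over all probe sets. Of the 12, 2 probe sets passed the filter on dim signals only through the NALM-6-labelled DMSO arrays, in which they are high, so they had to be lower with GSK126. EED is among the 8 genes only through 1 of them, 210656_at. Among the 20 PRC2 probe sets above the medians on all 8 arrays, 9 were called lower and 0 higher, where 21.2% of the 23517 such probe sets were called lower. JARID2 ran the other way. Its probe set 203297_s_at read 10.21 and 10.18 with GSK126, against 9.98 and 10.12 with DMSO, a difference of 0.15 ± 0.06 (adjusted p = 0.0944), and 203298_s_at differed by 0.11 ± 0.06, with no overlap on either. Renewed quantile normalization called both higher, and the trended robust prior or leaving out NALM-6 DMSO replicate 2 called 203297_s_at higher. The count of 12 fell when NALM-6 GSK126 replicate 2 was left out. It fell to 3 when a fold change of 1.2 was set as the null, where 11.8% of all probe sets were called. Those 3 are PHF19 227211_at and the 2 probe sets whose direction the filter fixed, EED 210656_at and AEBP2 235184_at.

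PHF19, a Polycomb-like protein, fell on all 3 of its probe sets. Probe set 227212_s_at read 10.71 and 10.75 with GSK126, against 11.14 and 11.18 with DMSO, a difference of -0.43 ± 0.06 (adjusted p = 0.000924). Probe set 227211_at read 10.07 and 9.97 with GSK126, against 10.52 and 10.59 with DMSO, a difference of -0.54 ± 0.06 (adjusted p = 0.000292). On 225533_at the values were 10.23 and 10.15 with GSK126, against 10.41 and 10.40 with DMSO. There the difference was -0.21 ± 0.06 (adjusted p = 0.0231), a call lost without either DMSO array or GSK126 replicate 2 of that label. In all 3 probe sets both GSK126 arrays lay below both DMSO arrays.

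The other Polycomb-like proteins fell less or on some probe sets. PHF1 read 9.95 and 10.03 on 40446_at with GSK126, against 10.25 and 10.36 with DMSO, a difference of -0.31 ± 0.06 (adjusted p = 0.00518). Its dimmer probe set 202928_s_at differed by -0.23 ± 0.08 and just missed the call (adjusted p = 0.0542). MTF2 was called lower on 2 of 5 probe sets, by 0.40 on 209704_at (adjusted p = 0.00176) and by 0.24 on 209705_at (adjusted p = 0.0137). Probe set 209704_at read 9.81 and 9.70 with GSK126, against 10.10 and 10.22 with DMSO. The 3 other MTF2 probe sets differed by -0.12 to -0.15 and were not called. The mean of all 5 was called, at -0.21.

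Among the core subunits, SUZ12 and RBBP7 were called lower. SUZ12, the scaffold of the core, read 11.81 and 11.78 on 212287_at with GSK126, against 11.96 and 12.04 with DMSO. That is a fall of 0.21 log2 units (SE 0.06, adjusted p = 0.0189). RBBP7, a histone chaperone, read 12.98 and 12.99 with GSK126, against 13.12 and 13.18 with DMSO, a difference of -0.17 ± 0.05 (adjusted p = 0.033). Neither pair of groups overlaps, but both calls were lost without NALM-6 DMSO replicate 2 or either NALM-6 GSK126 array, and that of RBBP7 also without either SUP-B8 GSK126 array. The second tested SUZ12 probe set, 1566191_at, differed by -0.03 ± 0.12 and gave no call, and the mean of the SUZ12 probe sets, at -0.10, was not called either. EZH1 was called only on 239198_at, which read 7.30 and 7.34 with GSK126 against 7.58 and 7.63 with DMSO, at -0.29 ± 0.06 (adjusted p = 0.0086). Its 3 brighter probe sets differed by -0.10 to 0.00 and were not called.

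**Figure D2:**
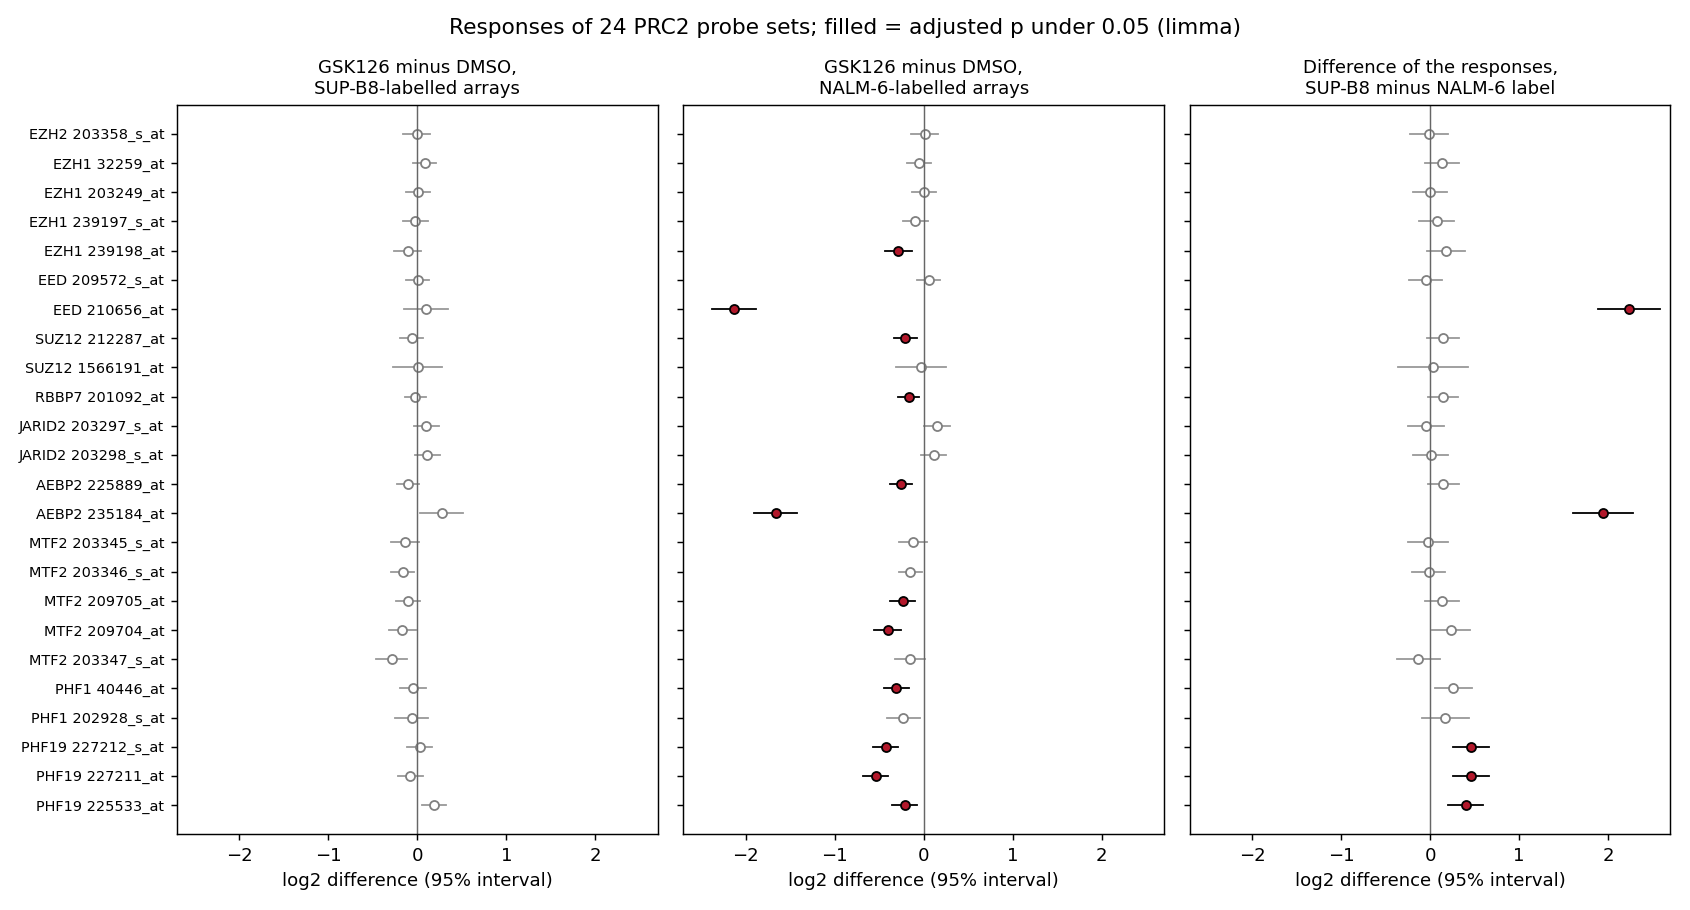
Log2 differences of the 24 tested PRC2 probe sets with 95% intervals from limma: GSK126 minus DMSO in the SUP-B8-labelled and in the NALM-6-labelled arrays, and the difference of these responses. Filled points have an adjusted p under 0.05: 0 in the SUP-B8 panel, 12 in the NALM-6 panel, all below 0, and 5 in the panel of differences, all above 0, of which EED 210656_at and AEBP2 235184_at passed the filter only through the NALM-6-labelled DMSO arrays.

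EED and AEBP2 each have a bright and a dim probe set that differ in direction or size. EED on 209572_s_at read 11.92 and 11.98 with GSK126, against 11.85 and 11.94 with DMSO in the NALM-6-labelled arrays, and its difference of 0.06 ± 0.06 was not called. On 210656_at, the values were 5.83 and 5.84 with GSK126 against 7.83 and 8.12 with DMSO. Both GSK126 arrays lay below their medians there, so the fall on EED 210656_at is given as at least 0.75, with no test, since the filter kept this probe set through the DMSO arrays alone. In the SUP-B8-labelled arrays the same probe set read 5.68 and 5.46 with GSK126 and 5.54 and 5.41 with DMSO, all below the medians. Averaging both probe sets would give EED a fall of 1.04 log2 units, in the opposite direction to its bright probe set.

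AEBP2, a zinc-finger cofactor of the complex, was lower with GSK126 on both of its probe sets in the NALM-6-labelled arrays. Its bright probe set 225889_at read 10.92 and 10.85 with GSK126, against 11.15 and 11.12 with DMSO. The difference was -0.25 ± 0.05 (adjusted p = 0.00635), a call lost without NALM-6 GSK126 replicate 2. On 235184_at the values were 6.12 and 6.12 with GSK126 against 7.72 and 7.84 with DMSO, a fall of at least 0.55, again with no test. In the SUP-B8-labelled arrays this probe set read 5.01 and 4.92 with GSK126 and 4.52 and 4.86 with DMSO, below the medians throughout. The NALM-6-labelled DMSO arrays were thus the only group above the array medians on either dim probe set. Which transcripts these 2 probe sets match was not tested.

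**Figure D3:**
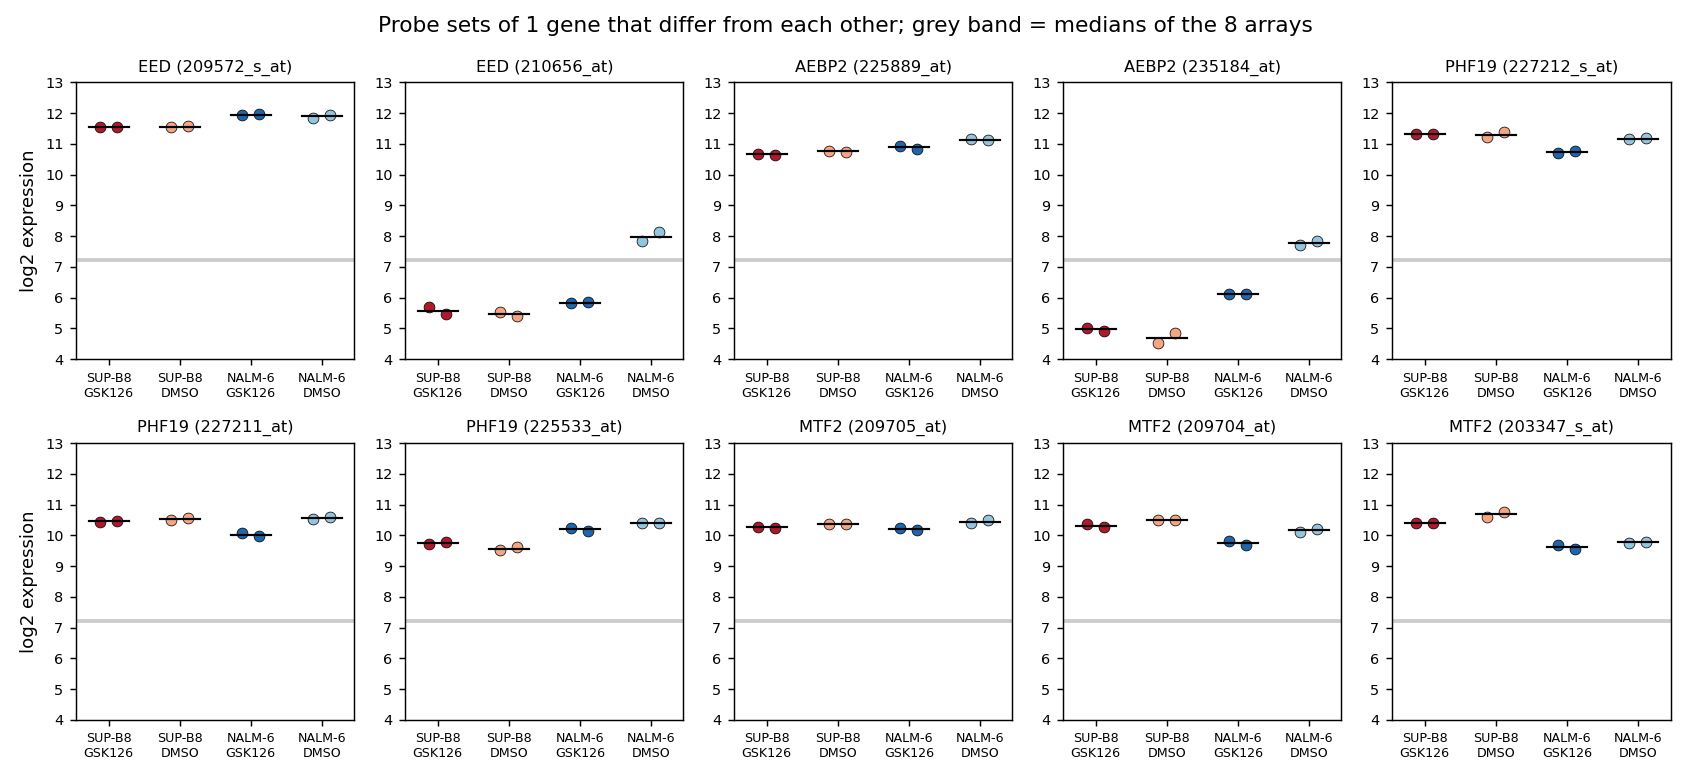
Log2 expression on each array for probe sets of EED, AEBP2, PHF19 and MTF2; points are arrays, bars group means of 2 arrays, and the grey band spans the medians of the 8 arrays. EED 210656_at and AEBP2 235184_at rise above the band only in the NALM-6-labelled DMSO arrays, while the bright probe sets of the same genes differ by far less between groups.

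The 2 lines responded differently for PHF19. The difference of responses, SUP-B8 minus NALM-6, was called for 5 of the 24 probe sets, where 24.5% of all probe sets were called. All 5 were positive, where 11.9% of all were called positive. But 2 of them, the dim probe sets of EED and AEBP2, passed the filter only through the NALM-6-labelled DMSO arrays. That fixes their fall in NALM-6 and so favours a positive difference of responses. Among the 20 PRC2 probe sets above the medians on all 8 arrays, 3 were called, all of PHF19, where 23.9% of all such probe sets were called. The shares called in either direction lie below the background. The 3 calls among the 20 were all positive, where 11.6% of all such probe sets were called positive, but they belong to PHF19 alone. The counts are therefore no result about the complex. This contrast, the NALM-6 contrast and the line comparison under DMSO share the NALM-6-labelled DMSO arrays. The difference of responses was 0.46 ± 0.09 on PHF19 227212_s_at (adjusted p = 0.007), 0.46 ± 0.09 on 227211_at (adjusted p = 0.0068) and 0.40 ± 0.09 on 225533_at (adjusted p = 0.0114). These PHF19 calls held in all 8 omissions of an array but not against a fold change of 1.2. The bright probe sets of EED and AEBP2 gave differences of -0.05 ± 0.08 (adjusted p = 0.689) and 0.15 ± 0.08 (adjusted p = 0.195), not called. PHF1 40446_at, at 0.26 ± 0.09, was not called (adjusted p = 0.0649). For SUZ12 and RBBP7, differences of 0.14 each were not called either, so the fall of these genes and of AEBP2 225889_at is not shown to differ between the labels.

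Several PRC2 genes differed between the lines both with the inhibitor and without it, as most probe sets did. The shares called were 66.7% of the PRC2 probe sets against 66.5% of all under GSK126, and 75% against 67.8% under DMSO. JARID2 was higher in the SUP-B8-labelled arrays. Its probe set 203297_s_at read 11.00 and 10.97 in SUP-B8 against 10.21 and 10.18 in NALM-6 under GSK126, and 10.85 and 10.91 against 9.98 and 10.12 under DMSO. The differences were 0.79 ± 0.06 (adjusted p = 6.4e-06) and 0.84 ± 0.06 (adjusted p = 3.93e-06). On 203298_s_at they were 0.92 ± 0.06 under both treatments. JARID2 thus ordered the groups as SUP-B8 with GSK126, SUP-B8 with DMSO, NALM-6 with GSK126 and NALM-6 with DMSO, with neighbours inside a line not called apart. Its remaining probe set, 240674_at, lay near the medians, at 6.82 to 7.22, and was not tested.

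MTF2 was higher in SUP-B8 on 4 of its 5 probe sets under either treatment. On 203345_s_at it read 11.82 and 11.77 in SUP-B8 against 11.25 and 11.15 in NALM-6 under GSK126, and 11.90 and 11.97 against 11.24 and 11.39 under DMSO. The differences were 0.59 ± 0.07 and 0.62 ± 0.07. Over the 5 probe sets they ran from 0.06 to 0.78 under GSK126 and from -0.08 to 0.91 under DMSO, 209705_at being the lowest in both and not called. The call on 203346_s_at, at 0.15 and 0.17, was lost without any of the 4 GSK126 arrays for the GSK126 comparison, and without either SUP-B8 DMSO array or NALM-6 DMSO replicate 1 for the DMSO comparison.

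RBBP7 and the bright EED probe set were lower in the arrays labelled SUP-B8 under both treatments, and SUZ12 under DMSO. RBBP7 read 12.54 and 12.51 in SUP-B8 against 12.98 and 12.99 in NALM-6 under GSK126, and 12.55 and 12.56 against 13.12 and 13.18 under DMSO. Its differences were -0.46 ± 0.05 (adjusted p = 6.53e-05) and -0.60 ± 0.05 (adjusted p = 1.01e-05). EED on 209572_s_at read 11.56 and 11.55 in SUP-B8 against 11.92 and 11.98 in NALM-6 under GSK126, and 11.53 and 11.57 against 11.85 and 11.94 under DMSO. These are differences of -0.40 ± 0.06 and -0.34 ± 0.06, both called. SUZ12 on 212287_at differed by -0.27 ± 0.06 under DMSO (adjusted p = 0.00231). Under GSK126 its difference of -0.13 ± 0.06 missed the call (adjusted p = 0.0733), while the mean of the SUZ12 probe sets, at -0.15, was called (adjusted p = 0.0336). The dimmer SUZ12 probe set 1566191_at was called under neither treatment. RBBP4 differed by 0.04 ± 0.05 under GSK126 and by 0.02 ± 0.05 under DMSO and was not called.

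EZH1, the paralog of the drug's target, was also lower in SUP-B8. On 32259_at it read 9.18 and 9.18 in SUP-B8 against 9.37 and 9.42 in NALM-6 under GSK126, and 9.15 and 9.05 against 9.41 and 9.48 under DMSO. The differences were -0.21 ± 0.06 (adjusted p = 0.0101) and -0.35 ± 0.06 (adjusted p = 0.00065). EZH1 was called lower on 3 of 4 tested probe sets in each comparison. The exception, 203249_at, differed by -0.09 ± 0.06 and -0.10 ± 0.06. Under GSK126 each of the 3 calls was lost in 1 to 3 of the 8 omissions of an array, and all 3 fell short against a fold change of 1.2. The mean of all EZH1 probe sets, at -0.11, was not called under GSK126 (adjusted p = 0.0852). On 239198_at both SUP-B8-labelled GSK126 arrays lay below their medians, so SUP-B8 is given there only as lower by at least 0.13. That call was also lost with each array centred on its median and with the trended robust prior.

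AEBP2 225889_at, the bright probe set, differed by -0.23 ± 0.05 under GSK126 and by -0.38 ± 0.05 under DMSO, both called. On 235184_at SUP-B8 lay at least 0.58 lower under DMSO, and under GSK126 both groups were below the medians, so no size is given, and that call was lost with values below the medians set to them. On the dim EED probe set 210656_at SUP-B8 was lower by at least 0.77 under DMSO. The filter kept both dim probe sets only through the NALM-6-labelled DMSO arrays, so their direction under DMSO was fixed and is no test. PHF1 40446_at was lower by 0.41 under DMSO (adjusted p = 0.000408) and differed by -0.14 ± 0.06 under GSK126 (adjusted p = 0.0714).

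For PHF19 the answer turned on the probe set and on the treatment. On 227212_s_at SUP-B8 read 11.34 and 11.32 against 10.71 and 10.75 in NALM-6 under GSK126, a difference of 0.60 ± 0.06 (adjusted p = 3.49e-05). Under DMSO it read 11.23 and 11.37 against 11.14 and 11.18, a difference of 0.14 ± 0.06 that was not called (adjusted p = 0.0726). Probe set 227211_at gave 0.43 ± 0.06 under GSK126 and -0.03 ± 0.06 under DMSO. Probe set 225533_at ran the other way, with 9.72 and 9.78 in SUP-B8 against 10.23 and 10.15 in NALM-6 under GSK126, and 9.51 and 9.62 against 10.41 and 10.40 under DMSO. Its differences were -0.44 ± 0.06 and -0.84 ± 0.06, both called. The mean of the 3 probe sets gave 0.20 under GSK126 and -0.24 under DMSO, so no single direction can be given for PHF19 between the labels.

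Across the PRC2 probe sets, 8 were called higher and 8 lower in SUP-B8 under GSK126, and 6 higher and 12 lower under DMSO. The 12 include EED 210656_at and AEBP2 235184_at, whose direction under DMSO was fixed by the filter. Among the 20 above the medians on all 8 arrays, 6 were called higher and 8 lower under DMSO. Over all such probe sets 35.6% were called higher and 30.7% lower there. The background was high: 66.5% of all probe sets were called under GSK126 (33.9% higher, 32.6% lower) and 67.8% under DMSO (35.9% higher, 31.9% lower), so the share of PRC2 probe sets called, 66.7% and 75%, is no result about the complex. The comparisons use separate arrays, but both take their spread from the same fit of all 8 arrays. Both called the same direction in 14 of the 24, where 55.5% of all probe sets did so. The 14 include AEBP2 235184_at, whose call under GSK126 was lost with values below the medians set to them. The profile of JARID2 over the 4 group means was most like those of SULT1A1, EBLN2 and DHX34 (root mean square differences of 0.01, 0.01 and 0.02 log2 units). That of RBBP7 was most like those of PAN3, EIF3H and RAD21 (0.01 each).

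**Figure D4:**
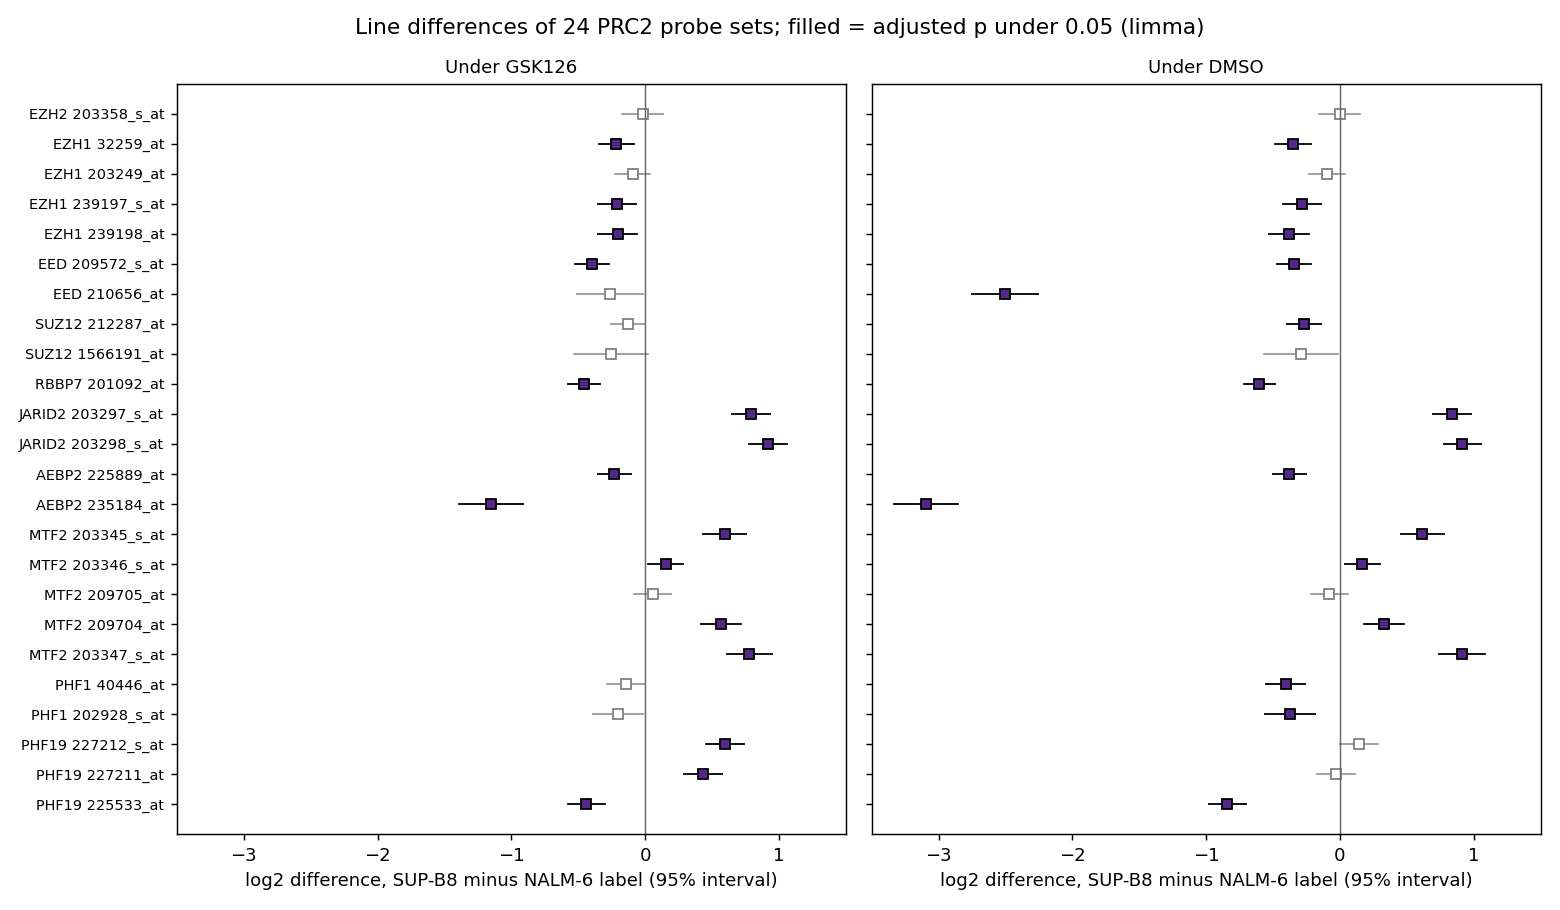
Log2 differences, SUP-B8 minus NALM-6 label, of the 24 tested PRC2 probe sets with 95% intervals from limma, under GSK126 and under DMSO. JARID2 and most MTF2 probe sets lie to the right of 0 in both panels, RBBP7, EED and AEBP2 to the left, and EZH2 at 0. The dim probe sets EED 210656_at and AEBP2 235184_at lie furthest left under DMSO. Their points are fitted values, and since SUP-B8 lay below the medians it is given only as lower by at least 0.77 and 0.58. The filter kept both only through the NALM-6-labelled DMSO arrays.

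Genes that work beside PRC2 were read from the probe set of highest mean per gene, and counts are set against the 13161 genes tested this way. In the SUP-B8 contrast 1.34% of these genes were called, and 0 members of the 4 lists were. There the differences of largest size were LCORL (0.15) and EPOP (0.05) among other PRC2-associated proteins, and CBX7 (0.22) and PHC1 (0.21) among subunits of the sister complex PRC1. Among enzymes opposing PRC2 they were KDM6B (-0.10) and SETD2 (-0.08), and among E2F, RB and MYC factors E2F6 (-0.06) and E2F2 (-0.06). In the NALM-6 contrast 20.1% of genes were called higher and 17.7% lower. RBBP4, the close relative of RBBP7, differed by -0.07 ± 0.05 and was not called. LCORL, a gene that encodes a PRC2 accessory protein, rose by 0.77 ± 0.09 as the only call among 4 tested PRC2-associated genes, and SKIDA1 and EZHIP were too dim to test.

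PRC1 genes moved in both directions in the NALM-6-labelled arrays, with 7 of 14 higher and 3 lower and a median of 0.17. CBX7, a reader of the PRC2 mark, rose by 0.93 ± 0.07, PCGF2 by 0.77 ± 0.06, PHC1 by 0.75 ± 0.05 and CBX2 by 0.57 ± 0.07. Of 6 tested genes for H3K27 demethylases and opposing methyltransferases, 5 fell and 0 rose, with a median of -0.35. The lysine 36 methyltransferases SETD2 (-0.50 ± 0.05), NSD3 (-0.42 ± 0.06) and NSD2 (-0.37 ± 0.05) were lower, as was the demethylase KDM6A (-0.34 ± 0.10). Among 7 E2F, RB and MYC genes, MYC rose by 0.60 ± 0.05 and E2F6 (-0.31 ± 0.05), E2F3 (-0.30 ± 0.06) and E2F1 (-0.26 ± 0.06) fell.

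Under DMSO, 37.2% of genes were called higher and 30.1% lower in SUP-B8. EPOP, a PRC2 partner that links it to elongin, was higher by 1.26 ± 0.14 and LCORL by 0.99 ± 0.09, the 2 calls among 4. Of 14 PRC1 genes, 6 were higher and 4 lower, led by CBX6 (1.80 ± 0.07), YAF2 (-1.19 ± 0.06), CBX2 (0.91 ± 0.07) and CBX7 (-0.83 ± 0.07). The opposing enzymes were lower in 5 and higher in 1 of 6, led by KDM6A (-1.47 ± 0.10) and NSD3 (-0.70 ± 0.06), with KDM6B at -0.40 ± 0.05 and NSD2 at -0.36 ± 0.05. E2F2 (1.49 ± 0.06), E2F3 (1.31 ± 0.06) and MYC (1.26 ± 0.05) were higher and E2F6 (-0.38 ± 0.05) lower, in a list with 4 of 7 higher and 1 lower. Under GSK126, 34.6% of genes were called higher and 32.1% lower in SUP-B8. The lists had 2 of 4 higher for PRC2 partners, 7 higher and 6 lower of 14 for PRC1, 2 higher and 3 lower of 6 for the opposing enzymes, and 5 higher and 1 lower of 7 for the E2F, RB and MYC genes. There the differences were 1.34 ± 0.14 for EPOP, 2.01 ± 0.07 for CBX6, -1.54 ± 0.07 for CBX7, -1.19 ± 0.10 for KDM6A and 1.65 ± 0.06 for E2F3.

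E2F factors are known to drive transcription of EZH2 and EED, and the upstream windows of all 10 genes were therefore searched for E2F-type motifs. The letters were TTTCCCGC, TTTCGCGC, TTTGCCGC and TTTGGCGC on both strands, none of which overlap another match here. Of the 14 windows of 250 bases before RefSeq starts of these genes, 4 held a match, 1 each for EZH1, SUZ12, AEBP2 and PHF19, against 2.79% of all 35116 windows. The windows of EZH2 and EED held none. Windows with a match had a GC content of 66% to 79.2%, against a median of 58% over all windows, and the shares were not matched for it. The matching windows of AEBP2 and PHF19 lie inside the gene's own span. The sites are shown with 11 bases to either side, the motif in capitals, because they are all the matches in the family. Called lower on at least 1 probe set in the NALM-6 contrast were EZH1, SUZ12, AEBP2 and PHF19, with a match. So were RBBP7, MTF2 and PHF1, whose windows hold no match. EZH1 was called there only on 239198_at, its dimmest tested probe set, and the mean of the SUZ12 probe sets was not called. EED, also without a match, was called there only on the dim probe set whose direction the filter fixed. Any part of E2F factors in these calls was not tested. The sites lie at chr17:42745137-42745166 (minus), chr17:31936807-31936836 (plus), chr12:19440438-19440467 (plus) and chr9:120877322-120877351 (minus) in build GRCh38.p14. A match of letters is a description and no evidence of binding.
EZH1 site: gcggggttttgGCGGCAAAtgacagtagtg
SUZ12 site: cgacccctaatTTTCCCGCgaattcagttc
AEBP2 site: caaggcgacgtTTTGCCGCgatccccctgc
PHF19 site: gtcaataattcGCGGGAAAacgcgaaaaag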

How the data were processed

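RNA of 8 cultures was hybridized to arrays, and the authors' deposited table holds a log2 value per probe set and array, a unit read from the values. The submitters' processing notes name MAS5 and RMA, without saying what each was used for. The array medians differ by little, so a shift of the whole transcriptome could be hidden. Precision is limited by 2 arrays in each group. Where both arrays of a group were dimmer than their medians, only a bound is given, the distance of the brighter group's mean above those medians.

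Groups and replicates follow the labels. Of 54675 probe sets, 41097 had a single symbol, 1801 several and 11777 none; the 10 genes were matched by symbol, and 0 symbols changed through RefSeq. Tests used limma 3.58.1 (R 4.3.3) on all 8 arrays, which leaves 4 residual degrees of freedom. It was tested on simulated data. Python version 3.11.15 searched the RefSeq upstream sequences and drew the figures.

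Members, lists, tests and named genes (all members, up to 4 called genes of largest size per other list and comparison, or the 2 of largest size where none was called, and 3 genes of like profile for EZH2, JARID2 and RBBP7) were chosen with earlier results of these data known. The labels do not say whether equal replicate numbers mark a shared batch, and no block was used in the main fit. Alternatives changed the filter, the unit, the normalization, the prior, the arrays, a block and a fold threshold.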

Additional observations from a re-analysis of the deposited data

Results flagged for a closer look

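For 3 probe sets of PHF19 the response to GSK126 differed between the 2 labels by a test of the difference itself, limma's interaction contrast, SUP-B8 minus NALM-6. The values were 0.46 for PHF19 227212_s_at, 0.46 for PHF19 227211_at and 0.40 for PHF19 225533_at, measured above the medians in all groups. The same contrast gave fitted values of 2.24 for EED 210656_at and 1.94 for AEBP2 235184_at. These are no finding: 3 of the 4 groups lay below the array medians, so the sizes are not shown. The filter also kept both probe sets only through the NALM-6-labelled DMSO arrays. That fixes the direction of their NALM-6 response and favours a positive difference of responses. In each of the 5, both GSK126 arrays labelled NALM-6 lay below both DMSO arrays of that label.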

How the results depend on the processing

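Of 1996 recomputed member differences, 1878 kept their direction and their side of the threshold, 73 lost a call, 42 gained one and 3 changed direction. The 3 reversals came from averaging a gene's probe sets: EED at -1.04 in the NALM-6 contrast and 1.09 for the difference of responses, and PHF19 at -0.24 between lines under DMSO. In the SUP-B8 contrast the share of PRC2 probe sets called became 4.17% with the trended robust prior. The share of all features called there, 1.16%, became 0.331% without the filter on dim probe sets, 2.25% with 1 probe set per gene, 2.23% with a gene's probe sets averaged, 3.99% with that prior, 0.0563% against a fold change of 1.2 and 0.483% with only the 4 arrays compared. It ran from 0.126% to 0.834% when each array was left out, lowest without SUP-B8 GSK126 replicate 1. With values below an array's median set to that median, an alternative chosen after seeing the data, it was 2.53%. In the NALM-6 contrast 12.5% of the PRC2 probe sets were called against a fold change of 1.2, and 33.3% to 50% with each array left out, lowest without NALM-6 GSK126 replicate 2. All features gave 20.5% without the filter and 11.8% against that fold change. For the difference of responses, PRC2 calls were 10% with 1 probe set per gene, 33.3% with the prior and 8.33% against the fold change. All features gave 25.4%, 29.8% and 7.09% in the same order, and 10.9% without the filter. The PRC2 calls against the fold change were the dim probe sets of EED and AEBP2, which the filter kept only through the NALM-6-labelled DMSO arrays. Between the lines, 41.7% of the 24 PRC2 probe sets and 42.2% of all features were called against the fold change under GSK126. Under DMSO these were 33.3% of the 24 and 45.7% of all features. Without the filter all features gave 43% and 43.6%. Deviations of arrays with the same replicate number correlated at -0.186 to 0.09 between groups, so the numbers were not taken as pairs. With a replicate block the PRC2 calls were 0%, 45.8% and 20.8% for the SUP-B8, NALM-6 and response contrasts, and 62.5% and 75% between lines under GSK126 and DMSO. All features gave 0.904%, 37.3% and 22.4%, and 65.5% and 66.9%, in the same order. The causes of these changes were not tested.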

Other observations

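A further probe set, 213971_s_at, is annotated to both SUZ12 and its pseudogene SUZ12P1 and so was not counted as a member. It read 11.27 and 11.22 in SUP-B8-labelled GSK126 arrays, against 11.32 and 11.43 with DMSO. In the NALM-6-labelled arrays it read 11.36 and 11.31 with GSK126, against 11.45 and 11.40 with DMSO. Its differences of -0.13 ± 0.06 and -0.09 ± 0.06 were not called.

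The 3 member probe sets that were not tested lay at or below the array medians on nearly all arrays. EZH1 211310_at read 5.05 to 5.54 and SUZ12 1566190_at read 5.58 to 5.84. JARID2 240674_at reached above its array's median on 1 array.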
